A study of Mus musculus with 60 samples.

Results

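The 33 genes described here mark brain endothelial cells, the cells that line the blood vessels, or take part in the blood-brain barrier that these cells form. They were taken by symbol from a list made with earlier results of these data known, and all 33 were found among the 18088 genes of the table. RNA was taken from the prefrontal cortex of C57BL/6J mice, 25 days after birth. Of the libraries, 30 came from wild-type (WT) mice and 30 from heterozygotes (Het) carrying Grin2b+/C456Y, an allele of the gene for the GluN2B subunit of the NMDA receptor. From postnatal day 3 to 24 the pups were exposed through maternal milk to vehicle, to fluoxetine, a selective serotonin reuptake inhibitor, or to lithium, a mood stabiliser. Each of the 6 genotype-by-drug groups held 5 female and 5 male libraries, 60 in all. The labels number replicates but name no animals or litters, so a p-value below measures the spread between these libraries only, which may be technical.

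Brain endothelial cells are sealed to each other by tight and adherens junctions, carry few vesicles, and move nutrients and waste through transporters in their membranes. Wnt ligands from neural cells act on endothelial receptors and, through beta-catenin, maintain barrier genes such as claudin-5. Signalling by vascular endothelial growth factor (VEGF), angiopoietin and shear stress sets how vessels grow and stay quiet.

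Recovered totals ran from 23901635 to 37769417 reads per library. In bulk RNA from a dissected cortex, a lower level can mean fewer endothelial cells or less RNA per cell. It can also come from other cells that express the gene, and these cannot be told apart. Some libraries stood apart from the rest. A set of 16 pseudogenes was taken from the genes called, with a fold over 4, between Het and WT fluoxetine. In 10 libraries, split off at the largest gap, this set was low, with mean log2 levels of 1.78 to 3.15 against at least 4.60 in the other 50. Of these 10, 9 were Het fluoxetine libraries, which follows in part from how the set was chosen. The same 9 had values that fell with the GC content of genes (correlation over genes of -0.38 to -0.52). The remaining low library, WT vehicle female 2, was at -0.58. Het lithium male 4, at -0.40, and WT lithium female 4, at -0.39, lay in the range of the 9 without being low in pseudogenes. Members called in Het fluoxetine are therefore also given with a term for the 10 libraries. The 3 libraries with the largest residuals were WT lithium male 5, WT lithium female 5 and Het vehicle male 5. In the first of these the correlation with GC content was -0.78. Every member passed the filter on low values, and each had at least 10 normalised reads in all 60 libraries.

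Levels between genes were compared per kilobase of the longest transcript in GENCODE M21. In WT vehicle the glucose transporter gene Slc2a1 was highest at 1116 ± 241 normalised reads per kilobase (mean ± SD, n = 10), followed by Ly6c1 at 1102 ± 152 and Itm2a at 1029 ± 69.9. These 3 means lie within 1 SD of Slc2a1 from each other. Cldn5 came next at 908 ± 128. The lowest were Emcn at 55.1 ± 5.98 and Robo4 at 54.8 ± 8.22, which also do not differ beyond their SD.

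The drugs were compared with vehicle within each genotype, as the mean over the sexes, by limma on log2(value + 1). A gene is called lower or higher at a Benjamini-Hochberg adjusted p under 0.05 over the 17810 genes tested. In WT mice lithium lowered 21 of the 33 members and raised none, and 9.87% of all genes tested were called lower and 9.34% higher in that comparison. All 33 members had a log2 fold change below 0, with a median of -0.26, against 0.0039 for all genes. In WT mice fluoxetine lowered 10 members and raised 1, with 4.08% of all genes called lower and 4.35% higher, and the member median was -0.16. In Het mice fluoxetine lowered 16 members and raised 1, while 19.9% of all genes were called lower and 19.1% higher, and the median was -0.19. With the term for the 10 libraries, only Slc16a1 remained called there, and the member median was -0.17 with 28 of 33 below 0. In Het mice lithium lowered 2 members, Tek and Slc16a1, with 0.5% of all genes called lower and 0.483% higher. The median there was -0.11, and 30 of 33 folds were below 0.

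**Figure D1:**
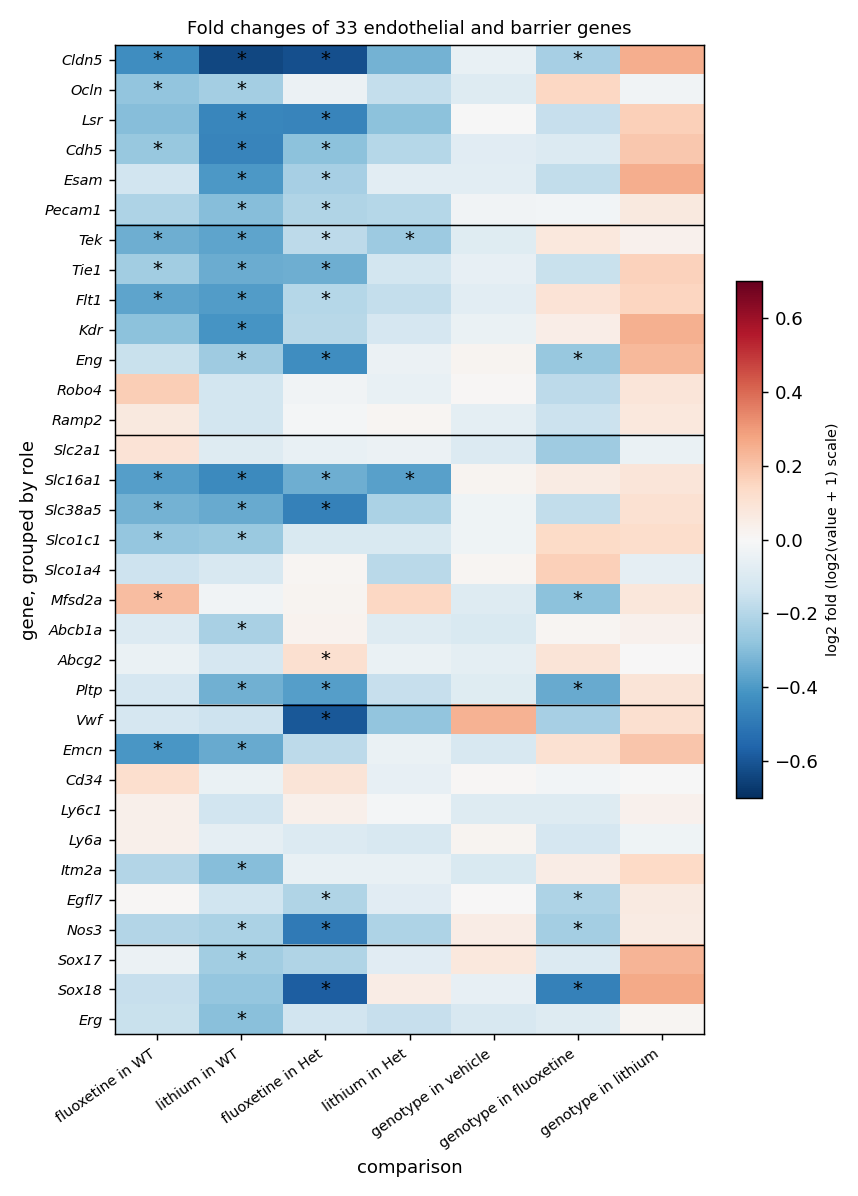
Fold changes of the 33 genes, 1 row per gene grouped by role, in 7 comparisons. Colour gives the log2 fold (drug minus vehicle, or Het minus WT) and a star marks an adjusted p under 0.05. The lithium column in WT is blue in all 33 rows, with 21 stars, and the columns for genotype in vehicle and in lithium have none.

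The 4 drug comparisons lowered different numbers of members: 2 genes were called lower in all 4, 5 genes in 3 of them, 9 genes in 2, 8 genes in 1 and 9 genes in none. The same counts were not made over all genes, so they do not show that the members stand out. Tek and Slc16a1 were the 2 called in all 4. Cldn5, Cdh5, Tie1, Flt1 and Slc38a5 were called in 3, each time in every comparison except lithium in Het. Within a genotype the 2 drugs share their vehicle libraries. Fluoxetine in WT and fluoxetine in Het share none, and 7 members were lower in both, which is 70% of the 10 in WT and 43.8% of the 16 in Het. Of all genes called lower, 343 were lower in both, 47.2% of the 727 in WT and 9.68% of the 3545 in Het. Lithium in WT and fluoxetine in Het also share no libraries, and 13 members were lower in both, 81.3% of the 16 and 61.9% of the 21. Over all genes 863 were lower in both, 24.3% of the 3545 in Het fluoxetine and 49.1% of the 1757 in WT lithium. In each of these comparisons a larger share of the members than of all genes was called lower, which by itself raises the members' shared percentages. Whether the overlap goes beyond that was not tested.

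Promoter sequence is shown for Cldn5, Tek and Slc16a1, which were lower in 3 or 4 drug comparisons, and, chosen after its values were seen, for Cd34, which was called in none. The windows are the 250 bases before the RefSeq start in GRCm38.p6, read 5′ to 3′ on the gene's strand, here the plus strand for each. Capitals mark GGAA or its reverse complement TTCC, the core bound by ETS factors such as the product of Erg.
Cldn5, chr16:18776597-18776846: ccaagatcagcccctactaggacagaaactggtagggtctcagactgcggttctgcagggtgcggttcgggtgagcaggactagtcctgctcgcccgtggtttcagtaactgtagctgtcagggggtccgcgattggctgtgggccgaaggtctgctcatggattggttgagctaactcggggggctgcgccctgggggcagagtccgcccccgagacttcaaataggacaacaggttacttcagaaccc
Tek, chr4:94739039-94739288: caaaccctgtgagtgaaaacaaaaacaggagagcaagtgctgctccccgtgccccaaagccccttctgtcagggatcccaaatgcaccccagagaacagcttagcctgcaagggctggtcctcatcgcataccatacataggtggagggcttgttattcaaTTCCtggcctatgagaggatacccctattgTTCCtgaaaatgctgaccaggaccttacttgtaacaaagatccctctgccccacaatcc
Slc16a1, chr3:104638414-104638663: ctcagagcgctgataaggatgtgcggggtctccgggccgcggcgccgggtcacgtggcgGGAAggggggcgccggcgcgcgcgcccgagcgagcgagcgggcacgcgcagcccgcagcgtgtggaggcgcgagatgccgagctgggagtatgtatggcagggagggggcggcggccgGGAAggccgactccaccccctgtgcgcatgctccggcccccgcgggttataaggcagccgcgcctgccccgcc
Cd34, chr1:194938571-194938820: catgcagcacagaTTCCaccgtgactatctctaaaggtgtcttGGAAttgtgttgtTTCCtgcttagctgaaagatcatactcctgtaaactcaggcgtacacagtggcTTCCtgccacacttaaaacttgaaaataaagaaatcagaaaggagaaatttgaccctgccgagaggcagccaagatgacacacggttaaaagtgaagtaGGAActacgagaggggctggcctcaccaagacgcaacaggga
The Slc16a1 window is 76.4% G and C, that of Cldn5 59.6%, that of Tek 51.2% and that of Cd34 46.4%. The Cldn5 window holds no GGAA or TTCC, while Tek and Slc16a1 hold 2 matches each and Cd34 holds 5. RefSeq windows were matched for 24 of the 33 members. GGAA on either strand was in 87.5% of those 24 and in 93.4% of the 27025 windows of the same length over all genes. ACAAT on either strand, a core of SOX factors, was in 25% of the members and 28.3% of all windows. CAAAG on either strand, within the site of TCF and LEF factors, was in 41.7% of the members and 48.7% of all. None of these 3 words contains another, and a match is a run of letters, not a bound site.

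All 6 junction members were lower with lithium in WT, 3 with fluoxetine in WT, 5 with fluoxetine in Het and none with lithium in Het, where limma gave 5 an unadjusted p under 0.05 and edgeR on recovered reads called 1, Cldn5. Cldn5 encodes claudin-5, the main tight junction protein of brain endothelium. Its normalised read counts were 1035 to 1619 (median 1266) in WT vehicle, 824 to 1098 (median 938) in WT fluoxetine and 560.0 to 992 (median 901) in WT lithium. In Het mice they were 1017 to 1836 (median 1193) in vehicle, 717 to 972 (median 795) in fluoxetine and 831 to 1204 (median 971) in lithium. No WT lithium library reached the lowest WT vehicle library, and no Het fluoxetine library reached the lowest Het vehicle library; the other 2 pairs overlap. Ranges this far apart and lower were seen in 0.124% of all genes for lithium in WT and in 2.4% for fluoxetine in Het. The log2 fold of Cldn5 was -0.64 (SE 0.091, adjusted p 4.44e-06) for lithium in WT and -0.43 (SE 0.091, adjusted p 9.26e-04) for fluoxetine in WT. In Het it was -0.62 (SE 0.091, adjusted p 8.56e-07) for fluoxetine, or -0.43 (SE 0.17, adjusted p 0.373) with the library term. For lithium in Het it was -0.33 (SE 0.091, adjusted p 0.0518), just outside the threshold, with 9 of 10 libraries below the vehicle mean of their sex.

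Cdh5 encodes VE-cadherin, the adhesion molecule of endothelial adherens junctions. It measured 505 to 757 (median 668) in WT vehicle, 487 to 590.0 (median 539) in WT fluoxetine and 319 to 593 (median 504) in WT lithium, and all 10 libraries of each drug lay below the vehicle mean of their sex although the ranges overlap. The log2 fold was -0.46 (SE 0.078, adjusted p 4.23e-05) for lithium and -0.27 (SE 0.078, adjusted p 0.0204) for fluoxetine. In Het the levels were 499 to 820.1 (median 612) in vehicle, 440.0 to 589 (median 489) in fluoxetine and 437 to 584 (median 547) in lithium. Cdh5 fell with fluoxetine in Het, at -0.29 (SE 0.078, adjusted p 0.00268), and lithium in Het gave -0.20 (SE 0.078, adjusted p 0.215). Pecam1, the CD31 adhesion molecule at endothelial contacts, measured 615 to 842 (median 758) in WT vehicle and 489 to 688 (median 589.9) in WT lithium, overlapping ranges with all 10 lithium libraries below the vehicle mean of their sex. Its log2 fold was -0.30 (SE 0.075, adjusted p 0.0036) for lithium in WT, -0.22 (SE 0.075, adjusted p 0.0562) for fluoxetine in WT, -0.21 (SE 0.075, adjusted p 0.0227) for fluoxetine in Het and -0.20 (SE 0.075, adjusted p 0.188) for lithium in Het. The call in Het fluoxetine ended in 4 of the 20 fits without 1 library, among them the fit without Het vehicle female 3.

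Ocln encodes occludin, a 4-pass protein of tight junctions, and fell with both drugs in WT, at -0.28 (SE 0.075, adjusted p 0.0128) for fluoxetine and -0.24 (SE 0.075, adjusted p 0.0222) for lithium. Fluoxetine in Het gave -0.040 (SE 0.075, adjusted p 0.712). The difference between the 2 genotypes in this effect, 0.24 (SE 0.11, adjusted p 0.0968), did not pass. Lsr, the tricellular junction protein angulin-1, was 176 to 346 (median 262) in WT vehicle and 153 to 233 (median 189) in WT lithium, with all 10 lithium libraries below the vehicle mean of their sex. Lsr fell with lithium in WT, at -0.45 (SE 0.10, adjusted p 0.00109), and with fluoxetine in Het, at -0.46 (SE 0.10, adjusted p 2.96e-04), while fluoxetine in WT gave -0.30 (SE 0.10, adjusted p 0.0518). Esam, an endothelial adhesion molecule of tight junctions, fell with lithium in WT, at -0.40 (SE 0.078, adjusted p 2.39e-04), and with fluoxetine in Het, at -0.23 (SE 0.078, adjusted p 0.0139). Without Het vehicle female 3, a library in which Esam reached 760.0, the Het call was lost. The library term ended the Het fluoxetine calls of Cdh5, at -0.13 (adjusted p 0.886), Pecam1, at -0.31 (adjusted p 0.478), Lsr, at -0.19 (adjusted p 0.845), and Esam, at -0.24 (adjusted p 0.671).

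Of the 7 receptor members, 5 were called lower with lithium in WT, 3 with fluoxetine in WT, 4 with fluoxetine in Het and 1 with lithium in Het. Tek encodes TIE2, the receptor for angiopoietins. It measured 473 to 637 (median 523) in WT vehicle, 368 to 558 (median 420.1) in WT fluoxetine and 357 to 479.7 (median 419.6) in WT lithium. In Het it measured 417 to 715 (median 499) in vehicle, 382 to 526 (median 448) in fluoxetine and 371 to 517 (median 426) in lithium. The ranges overlap in all 4 comparisons, and of the 10 libraries the number below the vehicle mean of their sex was 9 for fluoxetine in WT, 10 for lithium in WT, 10 for fluoxetine in Het and 8 for lithium in Het. In WT the log2 fold was -0.34 (SE 0.066, adjusted p 3.77e-04) for fluoxetine and -0.37 (SE 0.066, adjusted p 1.12e-04) for lithium. In Het it was -0.18 (SE 0.066, adjusted p 0.0239) for fluoxetine and -0.25 (SE 0.066, adjusted p 0.0437) for lithium. The Tek call for fluoxetine in Het was lost without Het vehicle female 3. The call for lithium in Het held in 5 of 20 fits without 1 library.

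Tie1, the relative of TIE2 that binds no known angiopoietin directly, fell with lithium in WT, at -0.35 (SE 0.078, adjusted p 0.00131), with fluoxetine in WT, at -0.24 (SE 0.078, adjusted p 0.0405), and with fluoxetine in Het, at -0.34 (SE 0.078, adjusted p 5.20e-04). Its call for fluoxetine in WT held in 8 of 20 fits without 1 library. Flt1 encodes VEGF receptor 1 and measured 1690.2 to 2141 (median 1934) in WT vehicle, 1253 to 2131 (median 1422) in WT fluoxetine and 889 to 1791 (median 1476) in WT lithium. In fluoxetine 9 of 10 libraries lay below the vehicle mean of their sex, and female 5 alone lay near the top of the vehicle range. The log2 fold of Flt1 was -0.37 (SE 0.082, adjusted p 0.00201) for fluoxetine and -0.39 (SE 0.082, adjusted p 6.43e-04) for lithium in WT, and -0.20 (SE 0.082, adjusted p 0.0479) for fluoxetine in Het, called in 6 of 20 fits without 1 library. Eng encodes endoglin, a co-receptor for the TGF-beta family. It was 801 to 1464 (median 999) in Het vehicle, 646 to 914 (median 768) in Het fluoxetine and 922 to 1079.8 (median 1001) in Het lithium. Its log2 fold was -0.44 (SE 0.084, adjusted p 5.94e-05) for fluoxetine in Het, where all 10 libraries lay below the vehicle mean of their sex, and -0.19 (SE 0.15, adjusted p 0.787) with the library term. For lithium in WT it was -0.25 (SE 0.084, adjusted p 0.0298). Of 20 fits without 1 library 13 called it, and those without WT lithium male 5 or female 5 did not. In Het fluoxetine the library term ended the calls of Tek, at -0.19 (adjusted p 0.716), Tie1, at -0.26 (adjusted p 0.625), and Flt1, at -0.19 (adjusted p 0.79). The other 3 receptor genes had folds from -0.41 to 0.17 in the 4 drug comparisons, with 1 call among them.

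Of the 9 transport members, 5 were lower with lithium in WT, 3 lower and 1 higher with fluoxetine in WT, 3 lower and 1 higher with fluoxetine in Het, and 1 lower with lithium in Het. Slc16a1 encodes MCT1, the transporter of lactate and ketone bodies. It measured 1533 to 2061 (median 1718) in WT vehicle, 1203 to 1643 (median 1310.2) in WT fluoxetine and 885 to 1750.4 (median 1319) in WT lithium. In Het it measured 1534 to 2488 (median 1714) in vehicle, 1246 to 1603 (median 1419) in fluoxetine and 1205 to 1599 (median 1370.2) in lithium. All 10 libraries lay below the vehicle mean of their sex in each of the 4 comparisons, although the ranges overlap. Its log2 folds were -0.38 (SE 0.072, adjusted p 2.33e-04) for fluoxetine in WT and -0.44 (SE 0.072, adjusted p 2.77e-05) for lithium in WT. In Het they were -0.34 (SE 0.072, adjusted p 1.76e-04) for fluoxetine and -0.38 (SE 0.072, adjusted p 0.00388) for lithium. These 4 calls held in every fit without 1 library, 20 for each comparison, and in all 9 other settings. With the library term the Het fluoxetine value was -0.56 (SE 0.13, adjusted p 0.0338).

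Slc38a5, a glutamine and amino acid transporter, measured 170.1 to 216 (median 196) in WT vehicle and 125 to 172 (median 158) in WT fluoxetine, where all 10 libraries lay below the vehicle mean of their sex. Its log2 fold was -0.33 (SE 0.10, adjusted p 0.0256) there, -0.35 (SE 0.10, adjusted p 0.00915) for lithium in WT and -0.47 (SE 0.10, adjusted p 1.85e-04) for fluoxetine in Het. Slco1c1, which carries thyroxine into the brain, fell in both WT comparisons, at -0.27 (SE 0.080, adjusted p 0.0229) for fluoxetine and -0.26 (SE 0.080, adjusted p 0.0185) for lithium. It gave -0.11 (SE 0.080, adjusted p 0.295) for fluoxetine in Het. The WT fluoxetine call was lost without WT fluoxetine female 2 or male 4, and the WT lithium call without WT lithium female 5. Pltp, a phospholipid transfer protein, measured 1396 to 1864 (median 1731) in WT vehicle and 1001 to 1549.8 (median 1349.6) in WT lithium. In Het it was 1381 to 2011 (median 1595) in vehicle and 1083 to 1443 (median 1264) in fluoxetine. All 10 drug libraries were below the vehicle mean of their sex in both pairs, with overlapping ranges. The log2 fold of Pltp was -0.34 (SE 0.061, adjusted p 1.08e-04) for lithium in WT and -0.38 (SE 0.061, adjusted p 3.21e-06) for fluoxetine in Het, and -0.12 (SE 0.061, adjusted p 0.263) for fluoxetine in WT. The Het fluoxetine calls ended with the library term, at -0.30 (adjusted p 0.692) for Slc38a5 and -0.17 (adjusted p 0.706) for Pltp.

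Abcb1a encodes P-glycoprotein, the efflux pump for many drugs. Its levels were 1012 to 1322 (median 1195) in WT vehicle, 972 to 1472 (median 1101) in WT fluoxetine and 866 to 1067 (median 1029.9) in WT lithium, and all 10 lithium libraries were below the vehicle mean of their sex. Abcb1a fell with lithium in WT, at -0.23 (SE 0.060, adjusted p 0.00527), and gave -0.10 (SE 0.060, adjusted p 0.359) for fluoxetine in WT, 0.026 (SE 0.060, adjusted p 0.767) for fluoxetine in Het and -0.089 (SE 0.060, adjusted p 0.54) for lithium in Het. Mfsd2a encodes the lysophospholipid transporter that brings in docosahexaenoic acid and restrains vesicle transport. It measured 717 to 1039 (median 918) in WT vehicle, 866 to 1354 (median 1000.4) in WT fluoxetine and 669.6 to 1133 (median 881) in WT lithium, and 8 of 10 fluoxetine libraries were above the vehicle mean of their sex. Mfsd2a rose with fluoxetine in WT, at 0.21 (SE 0.063, adjusted p 0.0217), a call lost without WT fluoxetine female 5 or WT vehicle female 2. Slc2a1 encodes GLUT1, the barrier's glucose transporter. Its counts ran over 2520.3 to 4729 (median 3783) in WT vehicle, 2752 to 5731 (median 4020.2) in WT fluoxetine and 2284 to 4445 (median 3532) in WT lithium. No drug comparison of Slc2a1 passed the test: the log2 fold was 0.10 for fluoxetine in WT with a 95% interval of -0.15 to 0.35, and -0.091 for lithium in WT with -0.34 to 0.16. In Het it was -0.052 for fluoxetine, with -0.30 to 0.20, and -0.042 for lithium, with -0.29 to 0.21. Abcg2, the efflux pump BCRP, is named, after its values were seen, because its call was 1 of only 2 upward ones: fluoxetine in Het gave 0.11 (SE 0.047, adjusted p 0.0466), or -0.011 (SE 0.086, adjusted p 0.988) with the library term, and 5 of 20 fits without 1 library kept the call.

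**Figure D2:**
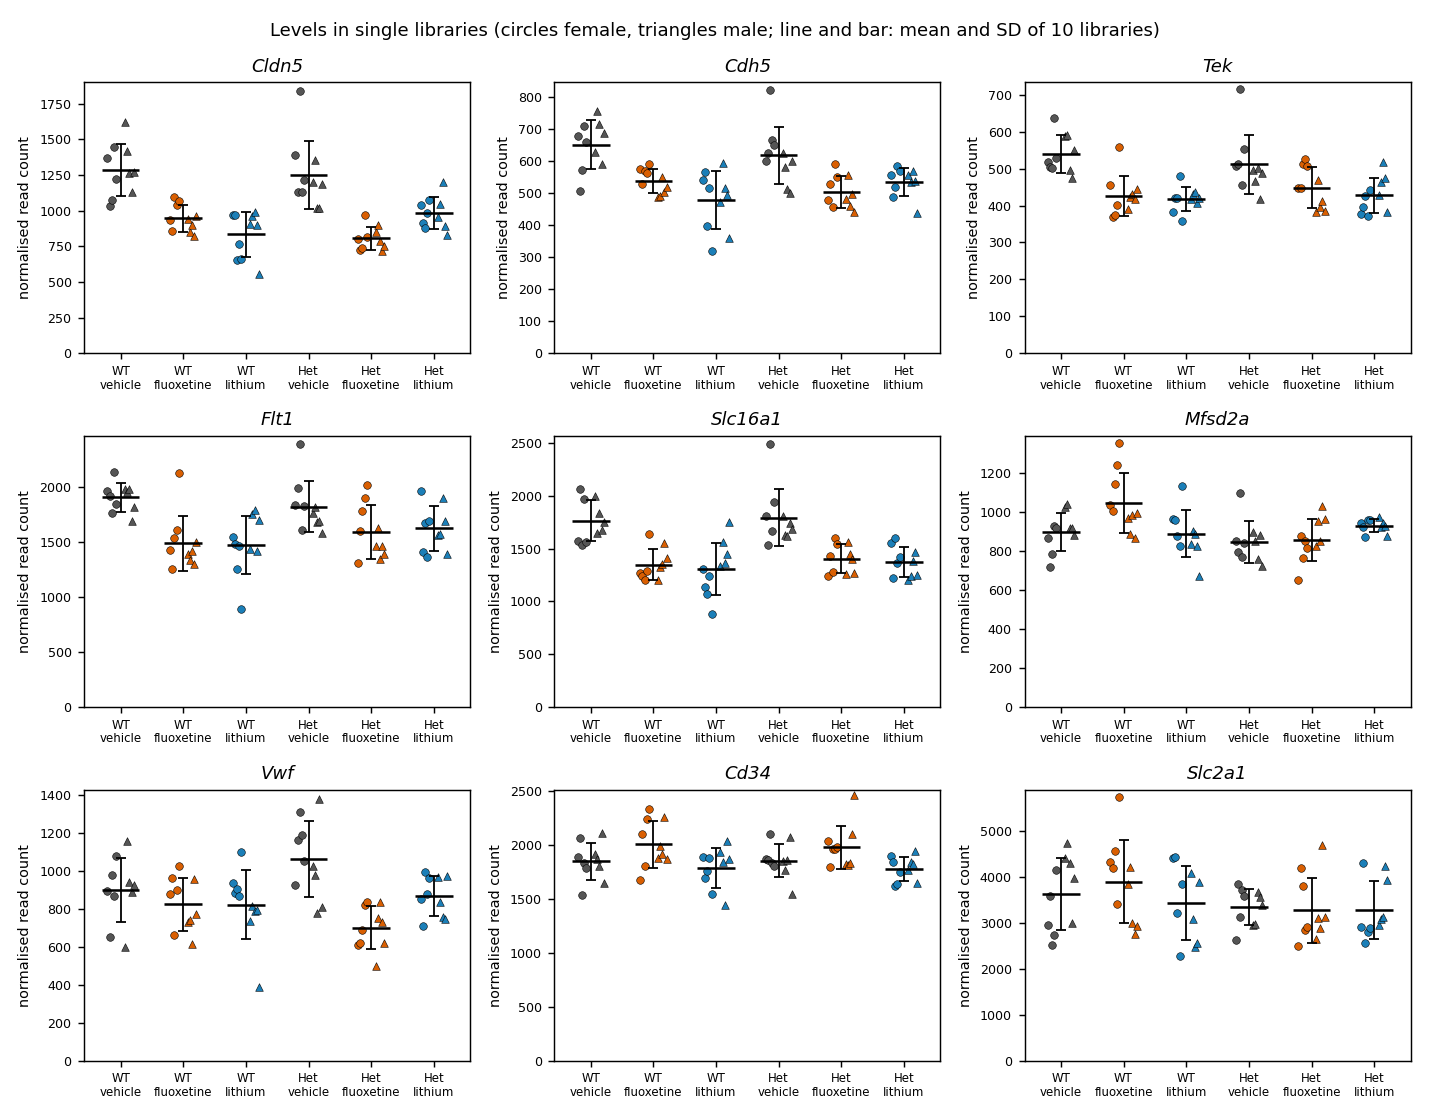
Normalised read counts of 9 genes in each library, by genotype and drug, with circles for females and triangles for males, and the mean and SD of 10 libraries. Cldn5 and Slc16a1 sit lower in each drug group than in the matching vehicle group, while the ranges of Slc2a1 and of Cd34 overlap among all 6 groups.

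Of the 8 surface and secreted members, 1 was called lower with fluoxetine in WT, 3 with lithium in WT, 3 with fluoxetine in Het and none with lithium in Het, where limma gave 2 an unadjusted p under 0.05 and edgeR called none. Emcn, an endothelial sialomucin of capillaries and veins, measured 162 to 217 (median 202) in WT vehicle and 103 to 220.3 (median 141) in WT fluoxetine, with female 5 the highest of the fluoxetine libraries. Its log2 fold was -0.41 (SE 0.11, adjusted p 0.0163) for fluoxetine and -0.35 (SE 0.11, adjusted p 0.0228) for lithium in WT. The first call was lost without WT fluoxetine male 4, and the second without WT lithium female 5 or male 5. Itm2a, a membrane protein of brain endothelium, fell with lithium in WT, at -0.30 (SE 0.076, adjusted p 0.00424). Nos3, the endothelial nitric oxide synthase, measured 360.5 to 506 (median 394) in Het vehicle and 243 to 338 (median 283) in Het fluoxetine, and these ranges do not overlap. Its log2 fold was -0.50 (SE 0.078, adjusted p 2.28e-06) there, -0.15 (SE 0.14, adjusted p 0.828) with the library term, and -0.22 (SE 0.078, adjusted p 0.0368) for lithium in WT. Nos3 in WT lithium was called in 9 of 20 fits without 1 library.

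Vwf encodes von Willebrand factor, a clotting protein stored in endothelial granules. It measured 598 to 1157 (median 912) in WT vehicle and 616 to 1027 (median 825) in WT fluoxetine, and 781 to 1380.3 (median 1038) in Het vehicle and 501 to 838 (median 709.9) in Het fluoxetine. All 10 Het fluoxetine libraries were below the vehicle mean of their sex. The log2 fold of Vwf was -0.59 (SE 0.12, adjusted p 1.02e-04) for fluoxetine in Het, -0.59 (SE 0.22, adjusted p 0.351) with the library term, and -0.12 (SE 0.12, adjusted p 0.609) for fluoxetine in WT. Egfl7, a secreted factor that vessels use in sprouting, fell with fluoxetine in Het, at -0.21 (SE 0.061, adjusted p 0.00528), or -0.12 (adjusted p 0.849) once the library term was added. Cd34, Ly6c1 and Ly6a, 3 classical surface markers of brain endothelium named after their values were seen, were called in none of the 4 drug comparisons, and neither were Robo4, Ramp2, Slco1a4 and Slc2a1. For lithium in WT the 95% interval of the log2 fold was -0.17 to 0.074 for Cd34, -0.28 to 0.013 for Ly6c1 and -0.23 to 0.10 for Ly6a. For Cldn5 it was -0.82 to -0.46. Ly6a and Ly6c1 belong to a family of similar genes, as Abcb1a and the Slco1a genes do, and how reads were shared among such copies is not stated, so their values are uncertain.

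The 3 transcription factor members specify arterial and general endothelial identity. Erg, an ETS factor of all endothelium, measured 157 to 248 (median 196) in WT vehicle and 124 to 187 (median 159) in WT lithium, with all 10 lithium libraries below the vehicle mean of their sex. Erg fell at -0.29 (SE 0.083, adjusted p 0.0101). Sox17, an arterial factor downstream of Wnt, fell with lithium in WT, at -0.25 (SE 0.088, adjusted p 0.0418), and was called in 10 of 20 fits without 1 library. Sox18, its relative, measured 169 to 294 (median 191) in Het vehicle and 87.6 to 173 (median 139) in Het fluoxetine, with all 10 fluoxetine libraries below the vehicle mean of their sex. Sox18 fell at -0.58 (SE 0.13, adjusted p 3.23e-04), or -0.20 (SE 0.23, adjusted p 0.892) once the library term was added. Fluoxetine in WT called none of the 3, where by limma none had an unadjusted p under 0.05 and edgeR on recovered reads called none.

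Lithium in WT lowered 17 members when those 3 libraries of largest residual were left out, against 16 without WT lithium female 5 alone and 18 without male 5 alone. Eng, Emcn, Nos3, Sox17 and Slc38a5 lost their calls without the 3, and Abcg2 gained one. Slc38a5 was then -0.23 (adjusted p 0.0588). When only the 2 WT groups entered the fit the number was 15. For fluoxetine in WT the count was 7 without WT fluoxetine male 4, of which 6 were lower, and 13 without female 5, all lower. For fluoxetine in Het it was 13 without Het vehicle female 3, of which 12 were lower, and the member median moved to -0.14. For lithium in Het the same library moved the member median, which was -0.11 with it and -0.057 without it, and Slc16a1 is then the 1 call left.

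The library term moved the Het fluoxetine values in both directions and widened their error. The median SE of the member folds was 0.15 with the term and 0.080 without, since 9 of the 10 Het fluoxetine libraries carry the term. Group means were fitted by sex, so the term was estimated only where a sex of a group held both kinds of library. These were the Het fluoxetine males, where male 1 alone lacks it, and the WT vehicle females, where female 2 alone carries it. All Het fluoxetine females carry it. The Het fluoxetine values with the term therefore rest on those single libraries. After correction for the GC content of genes, 15 members were lower in Het fluoxetine and none higher. Esam, Pecam1, Tie1, Flt1, Egfl7 and Abcg2 lost their calls with that correction, while Ocln, Slco1c1, Itm2a and Emcn gained one. The part of the 10 libraries in the Het fluoxetine values cannot be told apart from the drug in that genotype.

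**Figure D3:**
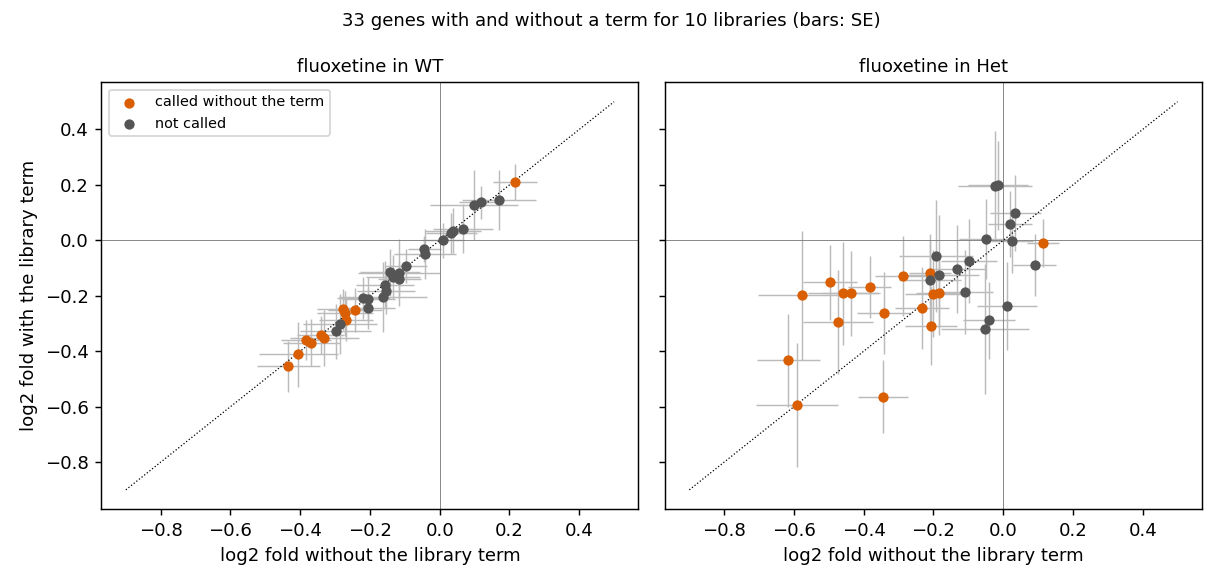
Log2 folds of the 33 genes for fluoxetine, without (x axis) and with (y axis) a term for the 10 libraries low in pseudogenes, WT left and Het right, with SE bars. In WT the points lie near the diagonal, and in Het they scatter around it, with a median SE of 0.15 on the y axis and 0.080 on the x axis.

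No member was called for genotype in vehicle, where 0.59% of all genes were called in either direction. By limma 1 member, Vwf, had an unadjusted p under 0.05 there, and edgeR on recovered reads also called none. The log2 fold of Cldn5 for Het against WT vehicle was -0.051, with a 95% interval of -0.23 to 0.13. The interval was -0.23 to 0.079 for Cdh5, -0.18 to 0.12 for Pecam1, -0.35 to 0.15 for Slc2a1 and -0.23 to 0.012 for Abcb1a. No member was called for genotype in lithium either, by limma, with 0.0281% of all genes called, 8 members at an unadjusted p under 0.05 and none by edgeR. Of the 33 members, 28 were nominally higher in Het lithium than in WT lithium. The log2 fold of Cldn5 there was 0.25 (SE 0.091, adjusted p 0.269), with 9 of 10 Het libraries above the WT mean of their sex.

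In fluoxetine 7 members were lower in Het than in WT, with 19.9% of all genes called lower. The members' share is close to that of all genes, so as a set they do not stand out in this comparison. Pltp had the smallest p: it measured 1449.6 to 1803 (median 1538) in WT fluoxetine and 1083 to 1443 (median 1264) in Het fluoxetine, ranges that do not overlap. Pltp was lower at -0.35 (SE 0.061, adjusted p 2.12e-05). Ranges apart and lower were seen in 1.66% of all genes in that comparison. Mfsd2a was lower at -0.29 (SE 0.063, adjusted p 3.24e-04), Sox18 at -0.47 (SE 0.13, adjusted p 0.0025), Egfl7 at -0.22 (SE 0.061, adjusted p 0.00356) and Eng at -0.26 (SE 0.084, adjusted p 0.00968). Nos3 was lower at -0.24 (SE 0.078, adjusted p 0.0111) and Cldn5 at -0.23 (SE 0.091, adjusted p 0.0357). The Cldn5 call held in 11 of 20 fits without 1 library, and the other calls in all 20. None of the 7 was called with the library term. GC correction left Pltp and Mfsd2a and called 2 others, 4 members in all.

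The test of the difference itself, the fluoxetine effect in Het minus that in WT, called 3 members, each lower. In that test 12% of all genes were called lower, a larger share than among the members. The 3 members were Pltp at -0.27 (SE 0.086, adjusted p 0.02), Vwf at -0.47 (SE 0.17, adjusted p 0.0317) and Nos3 at -0.29 (SE 0.11, adjusted p 0.0461). None was called with GC correction or with the library term. Leaving out WT fluoxetine male 4 or WT vehicle female 2 left 1 call. Of 40 fits without 1 library, Pltp was called in 40, Vwf in 34 and Nos3 in 16. The Nos3 call was also lost by edgeR on recovered reads. The lithium effect in Het minus that in WT called no member by limma, with 0.0674% of all genes called, 5 members at an unadjusted p under 0.05 and none by edgeR. Of those differences 29 of 33 were above 0, with a median of 0.14, and that of Cldn5 was 0.31 (SE 0.13, adjusted p 0.355). The smaller number of calls for lithium in Het than in WT is therefore not shown to be a difference between the genotypes.

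The drugs were also set against each other within a genotype. In WT 3 members were higher in fluoxetine than in lithium, with 5.92% of all genes called higher: Mfsd2a at 0.24 (SE 0.063, adjusted p 0.00932), Pltp at 0.22 (SE 0.061, adjusted p 0.0118) and Esam at 0.27 (SE 0.078, adjusted p 0.0168). All 10 fluoxetine libraries lay above the lithium mean of their sex for each of the 3. Esam measured 438 to 622 (median 486) in WT fluoxetine and 312 to 529 (median 422) in WT lithium, which overlap. Without WT lithium male 5 there was 1 call, Mfsd2a, and none when the 2 groups were fitted alone. The difference for Cldn5 was 0.20 (SE 0.091, adjusted p 0.121). In Het 8 members were lower in fluoxetine than in lithium, with 16.7% of all genes called lower, and 1, Abcg2, was higher, with 16.1% of all genes called higher. Sox18 was lower at -0.63 (SE 0.13, adjusted p 1.94e-04) and Eng at -0.40 (SE 0.084, adjusted p 3.34e-04), and the Eng ranges of 646 to 914 (median 768) and 922 to 1079.8 (median 1001) do not overlap. Ranges apart and lower were seen in 1.35% of all genes there. None of the 9 was called with the library term, and GC correction left Eng and Sox18, 2 members.

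No member was called for sex: by limma, averaged over the 6 groups, 3 members had an unadjusted p under 0.05, edgeR called none, and 0.107% of all genes were called. The sex differences in the fluoxetine effect called no member in WT or Het, where 0% of all genes were called, with 3 and 1 members at an unadjusted p under 0.05 and none by edgeR. The sex difference in the lithium effect called none by limma in Het, where all 33 members had values below 0, with a median of -0.17. There 1 member had an unadjusted p under 0.05, 0% of all genes were called, and edgeR called none. Het vehicle female 3, with 32 members above their 60-library means and a median log2 deviation of 0.58, enters that difference and pulls it down. The 33 members come from the same libraries, so their common sign is not 33 separate results. In WT the sex difference in the lithium effect called Mfsd2a by limma, at 0.39 (SE 0.13, adjusted p 0.0405), with 4.81% of all genes called higher. Mfsd2a had means of 842 in female and 956 in male vehicle libraries and of 951 and 824 in lithium ones (SD 91.0, 70.2, 117 and 92.0, n = 5 each). That call was kept in 11 of 20 fits without 1 library and lost without the 3 libraries of largest residual, with GC correction, with the library term, and in the fit to the 4 WT groups alone.

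The members were also read library by library. In WT vehicle a library had 17 to 32 of the 33 members above their 60-library means (median 30.0), against 5 to 33 (median 13.5) in WT fluoxetine and 2 to 19 (median 10.5) in WT lithium. In Het vehicle it was 12 to 32 (median 25), in Het fluoxetine 4 to 22 (median 8) and in Het lithium 3 to 27 (median 15.5). The highest library was Het vehicle female 3, with 32 members above their means and a median log2 deviation of 0.58. In WT fluoxetine female 5 all 33 were above, with 0.33. The lowest were WT lithium female 5, at -0.32, and WT lithium male 5, at -0.29. All 6 groups overlap in this measure.

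**Figure D4:**
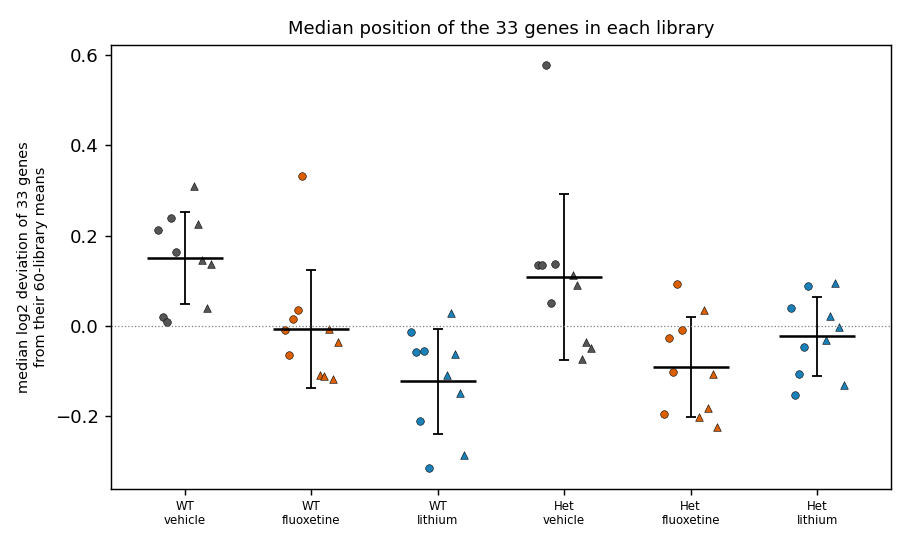
Median log2 deviation of the 33 genes from their 60-library means in each library, by group, with circles for females, triangles for males, and the mean and SD of 10 libraries. WT vehicle lies at or above 0 in each library, WT lithium lies below 0 in all but 1, and Het vehicle female 3 is highest at 0.58.

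Markers of other cells moved with lithium in WT, where 9.87% of all genes were called lower and 9.34% higher. Of 19 pericyte and smooth muscle markers 13 were lower, of 14 meningeal and perivascular fibroblast markers 10, of 14 microglia and macrophage markers 8, and of 14 astrocyte markers 6, with none higher in these lists. Among them Vtn, a pericyte protein, fell at -0.51 (SE 0.093, adjusted p 1.32e-04), Acta2, smooth muscle actin, at -0.70 (SE 0.13, adjusted p 2.33e-04), Col1a2 at -0.55 (SE 0.11, adjusted p 3.80e-04) and C1qc at -0.32 (SE 0.061, adjusted p 2.40e-04). The summed level of the pericyte and smooth muscle list was 10502 to 12853 in WT vehicle, 9569 to 14022 in WT fluoxetine and 6715 to 11532 in WT lithium. The fibroblast list summed to 7844 to 12514, 8112 to 11123 and 7029 to 10780.1 in the same order, and the microglia list to 11350 to 13431, 11180 to 15735 and 8251 to 11632. No listed marker was at 0 in every library. Leaving out the 3 libraries of largest residual gave lithium counts of 8 pericyte, 7 fibroblast, 8 microglia and 6 astrocyte markers. In fluoxetine in WT 1 pericyte marker, Acta2, was lower, and no fibroblast, astrocyte or microglia marker was called. Of all genes, 4.08% were called lower and 4.35% higher there. The part of these other cells in the lower endothelial levels was not tested.

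In Het, fluoxetine lowered 3 of the 19 pericyte markers and raised 3 of the 14 fibroblast markers, and lithium called none in either list. With fluoxetine in Het 19.9% of all genes were called lower and 19.1% higher, so these marker counts do not stand out from all genes. For lithium in Het the shares of all genes were 0.5% lower and 0.483% higher. Fluoxetine raised 2 of the 14 microglia and macrophage markers, Lyve1 at 0.64 (SE 0.16, adjusted p 0.00142) and Cd163 at 0.69 (SE 0.18, adjusted p 0.0016), both marks of perivascular macrophages. Mrc1 and Pf4 of the same list were not called higher, and the count of 2 is also no larger a share than that of all genes. It lowered 1 of the 14 astrocyte markers, Aldoc, at -0.22 (SE 0.065, adjusted p 0.00569), and lithium called none in these lists. Fluoxetine changed no marker in any list once the library term was added. The summed pericyte list was 9063 to 13487 in Het vehicle, 9105 to 12613 in Het fluoxetine and 9524 to 11373 in Het lithium. Oligodendrocyte markers were called in none of the 4 drug comparisons, red blood cell markers in fluoxetine in Het alone, with 2 of 6 lower, and the choroid plexus and ependymal list had 1 of 6 lower there. Of 12 neuron markers 4 were lower and 1 higher in fluoxetine in Het, and 1 was higher in each WT drug comparison.

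Endothelial genes outside the 33 were counted in the same way. For this list and those below, the share of all genes called lower was 9.87% for lithium in WT and 4.08% for fluoxetine in WT. It was 19.9% for fluoxetine in Het and 0.5% for lithium in Het. The shares called higher were 9.34%, 4.35%, 19.1% and 0.483% in the same order. Of 30 other endothelial genes, 18 were lower with lithium in WT, 10 with fluoxetine in WT, 16 with fluoxetine in Het, where 1 was higher, and 2 with lithium in Het. The lithium count in WT was 9 when the 3 libraries of largest residual were left out, and with the library term none of the 30 was called for fluoxetine in Het. Icam2, an endothelial adhesion molecule, was lower in all 4: -0.59 (SE 0.10, adjusted p 6.24e-05) for lithium and -0.60 (SE 0.10, adjusted p 6.09e-05) for fluoxetine in WT, -0.58 (SE 0.10, adjusted p 2.03e-05) for fluoxetine and -0.43 (SE 0.10, adjusted p 0.0283) for lithium in Het. Klf2, a shear stress factor, was lower with lithium in WT, at -0.49 (SE 0.11, adjusted p 0.00129), and Podxl, a sialomucin, with fluoxetine in WT, at -0.28 (SE 0.057, adjusted p 6.94e-04).

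Other transporters and junction genes were more mixed. Of 22 other barrier transporters 5 were lower and 4 higher with lithium in WT, 2 lower and 2 higher with fluoxetine in WT, and 2 lower and 6 higher with fluoxetine in Het. Fcgrt, the neonatal Fc receptor, was lower with lithium in WT, at -0.37 (SE 0.072, adjusted p 2.67e-04). Of 16 other junction genes 6 were lower and 2 higher with lithium in WT, 4 lower with fluoxetine in WT, 4 lower and 2 higher with fluoxetine in Het, and 1 each way with lithium in Het. Ctnnb1, which encodes beta-catenin, both a junction protein and the effector of Wnt, was lower with lithium in WT, at -0.34 (SE 0.031, adjusted p 1.47e-11), and in Het, at -0.25 (SE 0.031, adjusted p 5.40e-07). Cgnl1, a cytoplasmic plaque protein of tight junctions, was lower with lithium in WT, at -0.48 (SE 0.090, adjusted p 1.60e-04), and with fluoxetine in WT, at -0.38 (SE 0.090, adjusted p 0.00404). Many genes of both lists are expressed in other cells of the cortex too.

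Of 23 genes of Wnt signalling to the barrier 11 were lower with lithium in WT, 4 lower and 1 higher with fluoxetine in WT, 9 lower and 2 higher with fluoxetine in Het, and none with lithium in Het. Without those 3 libraries the lithium count in WT was 5, and with the library term none of the 23 was called for fluoxetine in Het. Lef1, a partner of beta-catenin, was lower with lithium in WT, at -0.68 (SE 0.12, adjusted p 8.42e-05), and with fluoxetine in WT, at -0.52 (SE 0.12, adjusted p 0.00305). Tcf7l2, of the same TCF and LEF family, was lower with fluoxetine in WT, at -0.64 (SE 0.15, adjusted p 0.00355). In which cells these genes changed was not tested. Wnt7a, a ligand made by neural cells, was lower at -0.65 (SE 0.18, adjusted p 0.00683) with lithium and -0.63 (SE 0.18, adjusted p 0.0162) with fluoxetine in WT, and its relative Wnt7b was lower with lithium, at -0.30 (SE 0.079, adjusted p 0.00507). Nkd1, a feedback gene of the pathway, was lower with lithium in WT, at -0.34 (SE 0.058, adjusted p 5.06e-05). Reck, a co-receptor for Wnt7, was higher with fluoxetine in WT, at 0.21 (SE 0.061, adjusted p 0.024).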

How the data were processed

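RNA was sequenced from the prefrontal cortex in 12 groups of 5 libraries. Per the labels' protocols, the kit keeps the strand of mRNA. The submitters' processing notes name Salmon 0.11.2, DESeq2 1.19.11, R 3.6.0 and GRCm38, without their roles, and do not say if counting used the strand. The authors' deposited signal is a normalised read count for each gene: in each column they were whole multiples of 1 step, so dividing by it gave whole read counts, within 0.001, for 100% of values. The authors' columns all matched a sample. Identifiers were matched to GENCODE M21.

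limma 3.58.1 in R 4.3.3, with trend and robust settings, was fitted to log2(value + 1) with a mean for each of 12 groups, leaving 48 residual degrees of freedom, for the 17810 genes with at least 10 in 5 or more libraries. From it came 16 contrasts, adjusted by Benjamini-Hochberg within each. Folds on this log2(value + 1) scale understate the change of low genes. The script was tested on simulated data. The members, their roles and the other lists were chosen with earlier results of these data known. In each comparison up to 3 called members of a role with the smallest p are described, with Cldn5, Cdh5, Pecam1, Slc2a1 and Abcb1a always, and up to 4 called genes of each other list. Alternatives were other scaling, no filter, a pseudocount of 5, edgeR 4.0.16 on recovered reads, only the groups compared, a replicate block, GC correction, a term for 10 libraries, and leaving out libraries.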

Additional observations from a re-analysis of the deposited data

Results flagged for a closer look

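In groups of 5 libraries, 25 of 300 tests of the 25 named members had 1 library far from the other 4, where chance gives about 1 in 20. Of these, 7 fell in Het vehicle female 3, all high: Cdh5 at 820.1 normalised reads, Esam at 760.0, Pecam1 at 996, Tie1 at 652, Eng at 1464, Slco1c1 at 3598 and Mfsd2a at 1098. WT lithium male 5 was low in Cldn5 at 560.0, in Tie1 at 295 and in Vwf at 391, while WT lithium female 5 was high in Vwf at 1101. WT fluoxetine female 5 was high in Slc16a1 at 1643, in Emcn at 220.3 and in Sox17 at 294, and WT fluoxetine male 4 was low in Slc38a5 at 125.

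In WT vehicle, male 1 was high in Ocln at 293, female 4 was high in Tek at 637 and female 3 was low in Emcn at 162. Het vehicle male 2 was high in Nos3 at 455. In Het fluoxetine, female 4 was high in Pltp at 1443 and in Nos3 at 338, male 2 was high in Esam at 496, and male 4 was high in Slc2a1 at 4688. In Het lithium, female 2 was high in Slc2a1 at 4314 and male 5 was low in Cdh5 at 437.

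The fluoxetine effect was called different between Het and WT by limma's interaction term, on the log2 scale, for Pltp at -0.27 (adjusted p 0.02), Vwf at -0.47 (adjusted p 0.0317) and Nos3 at -0.29 (adjusted p 0.0461). In that comparison 12% of all genes were called lower, a larger share than among the members. The lithium effect in WT was called different between females and males for Mfsd2a at 0.39 (adjusted p 0.0405), with 4.81% of all genes called higher. Each of these calls was lost with GC correction and with the library term.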

How the results depend on the processing

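Numbers of members called in the comparisons moved away from the count reported in these settings, and less so or not at all in most others. With the library term the count was 1 for fluoxetine in Het, and 0 for genotype in fluoxetine, genotype by fluoxetine, fluoxetine against lithium in Het and sex by lithium in WT. GC correction gave 4 for genotype in fluoxetine, 0 for genotype by fluoxetine, 5 for fluoxetine against lithium in WT, 2 for fluoxetine against lithium in Het and 0 for sex by lithium in WT. Without the 3 libraries with the largest residuals it was 7 for genotype by fluoxetine, 1 for fluoxetine against lithium in WT and 0 for sex by lithium in WT. For fluoxetine in WT the count was then 15, against 11 in the main fit. The groups compared alone gave 1 for lithium in Het, 6 for genotype by fluoxetine, 0 for fluoxetine against lithium in WT and 0 for sex by lithium in WT. They also gave 15 for lithium in WT, against 21 in the main fit, and 13 for fluoxetine against lithium in Het, against 9. Scaling by the trimmed mean of M values gave 5 for fluoxetine against lithium in WT. With 1 library left out at a time, counts ran from 7 to 13 for fluoxetine in WT, 13 to 17 for fluoxetine in Het, 16 to 23 for lithium in WT, 1 to 3 for lithium in Het, 6 to 10 for genotype in fluoxetine, 1 to 5 for genotype by fluoxetine, 1 to 6 for fluoxetine against lithium in WT, 6 to 11 for fluoxetine against lithium in Het, and 0 to 3 for sex by lithium in WT. The fit with a replicate block gave 11, 15, 21 and 2 calls for fluoxetine in WT, fluoxetine in Het, lithium in WT and lithium in Het. Correlations of the deviations of libraries sharing a number ran from -0.337 to 0.375, with medians of -0.0051 to 0.0042 by number. Libraries with different numbers were not compared, and pairing of only some groups would not show in a median. Whether the numbers pair any samples therefore cannot be told. Some log2 folds called in the main fit changed sign. Abcg2 for fluoxetine in Het was -0.077 (adjusted p 0.189) with GC correction and -0.011 (adjusted p 0.988) with the library term. With GC correction Cldn5 for genotype in fluoxetine was 0.017 (adjusted p 0.931), and Abcg2 for fluoxetine against lithium in Het was -0.030 (adjusted p 0.702). With the library term Nos3 was 0.11 (adjusted p 0.968) for genotype in fluoxetine, 0.066 (adjusted p 0.982) for fluoxetine against lithium in Het and 0.094 (adjusted p 0.955) for genotype by fluoxetine. A further 4 folds with GC correction and 5 with the library term, called in neither fit, changed sign and moved by at least their SE. The term widens the error where 9 of 10 libraries carry it; the cause of the other changes was not tested. Depth was at least 23901635 reads in every library, and the lowest value of any member in any library was 76.0 normalised reads. Leaving out all 10 low libraries was not run, because no Het fluoxetine female would remain.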

Other observations

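A pair of further lists were read beside the 33 genes. Of 31 genes of the VEGF, Notch and angiopoietin pathways, 13 were lower with lithium in WT, 3 with fluoxetine in WT and 12 with fluoxetine in Het, where 2 were higher, and lithium in Het had 1 in each direction. Apln, the peptide apelin, was lower with lithium in WT, at -0.69 (SE 0.14, adjusted p 4.70e-04), and its receptor gene Aplnr was lower with lithium, at -0.87 (SE 0.18, adjusted p 7.18e-04), and with fluoxetine in WT, at -0.78 (SE 0.18, adjusted p 0.00354). Nrp1, a VEGF co-receptor, was lower with fluoxetine in WT, at -0.37 (SE 0.070, adjusted p 2.82e-04). Smad7, an inhibitor of TGF-beta signalling, was lower with lithium in WT, at -0.26 (SE 0.054, adjusted p 4.67e-04), in Het, at -0.21 (SE 0.054, adjusted p 0.0373), and with fluoxetine in Het, at -0.26 (SE 0.054, adjusted p 1.55e-04). None of the 31 was called for fluoxetine in Het with the library term.

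Of 9 measured genes of caveolae and leukocyte adhesion, 5 were lower with lithium in WT, 1 with fluoxetine in WT and 3 with fluoxetine in Het, where 2 were higher, and none with lithium in Het. Cav1, the main caveolar coat protein, was lower with lithium in WT, at -0.42 (SE 0.084, adjusted p 3.81e-04), and with fluoxetine in WT, at -0.39 (SE 0.084, adjusted p 0.00138). Vcam1, which holds leukocytes to the vessel wall, was lower with lithium in WT, at -0.25 (SE 0.077, adjusted p 0.0188). Without the 3 libraries with the largest residuals the lithium count in WT was 3.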
